A study of Mus musculus with 8 samples.

Results

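The chemokine genes described here act mainly on myeloid cells and on T cells, and they were followed in a tumor cell line with and without the translation factor DENR. The set was given by name, as Cxcl1, Cxcl2, Cxcl5, Cxcl16, Cxcl12, Cx3cl1, Ccl2, Ccl5, Ccl7 and Ccl20, and members were the rows whose gene name matched. Of these 10 genes, 8 had a row in both deposited tables, among 20432 genes in both. Ccl20 had a row among the 22288 genes of the untreated table alone and is described there. Cxcl12 had a row in neither table, so its level is not analysed here. The samples were MC38 cells, derived from a mouse colon adenocarcinoma, and fell into 4 groups with 2 samples in each. Control and DENR KO cells were given IFNγ at 20 ng/ml for 4 h or were left untreated, and all 4 groups came from the same parental line. In the study's methods knockout was made with lentiviral Cas9 and guide RNA. Which guide these RNA samples carried, and whether the 2 samples of a group were separate cultures of 1 line, is not given in the sources used here, so a p-value measures the spread between these samples, which may be technical.

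Chemokines are small secreted or membrane-anchored proteins that draw leukocytes along a gradient through G protein-coupled receptors. The CXC ligands CXCL1, CXCL2 and CXCL5 bind CXCR2 and attract neutrophils, CCL2 and CCL7 bind CCR2 and attract monocytes, and CCL5, CX3CL1 and CXCL16 attract T cells, NK cells and monocytes, the last pair through CX3CR1 and CXCR6. In tumor cells their genes are switched on by NF-κB and by IFNγ through JAK kinases and IRF1, and several of the mRNAs carry AU-rich elements that shorten their life. DENR helps ribosomes to start again after a short upstream reading frame.

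Some of the genes are neighbours on GRCm38. Cxcl5 (chr5:90759360-90761624), Cxcl1 (chr5:90891241-90893115) and Cxcl2 (chr5:90903871-90905938) lie on the plus strand of chromosome 5, with 10.755 kb between Cxcl1 and Cxcl2. Ccl2 (chr11:82035571-82037453) and Ccl7 (chr11:82045712-82047525) are adjacent on the plus strand of chromosome 11, with 8.258 kb between them, and Ccl5 (chr11:83525778-83530518) and Cxcl16 (chr11:70453983-70459984) lie on the minus strand of the same chromosome. Cx3cl1 is at chr8:94772009-94782427 on the plus strand. Of the 3021 exon bases of Cxcl16, 552 are shared with Zmynd15 on the opposite strand. The handling of strand in the counting is not given in the sources used here, so reads in these shared bases cannot be told apart.

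RefSeq promoter windows were found for 5 of the 10 genes, which were Cxcl1, Cxcl2, Cx3cl1, Cxcl12 and Ccl20. Those of the neighbours Cxcl1 and Cxcl2 are shown because both hold the letters bound by NF-κB. Capitals mark the 9 letters GGAATTTCC, searched on either strand as the center of an NF-κB site, and each run ends 1 base before the RefSeq start site (GRCm38.p6, plus strand, chr5:90891135-90891244 for Cxcl1 and chr5:90903789-90903898 for Cxcl2).
Cxcl1: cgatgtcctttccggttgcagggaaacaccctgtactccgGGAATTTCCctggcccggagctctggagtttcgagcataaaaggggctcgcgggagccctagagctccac
Cxcl2: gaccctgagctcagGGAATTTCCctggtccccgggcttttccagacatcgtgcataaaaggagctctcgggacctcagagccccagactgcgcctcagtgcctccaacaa
The capitals begin 70 bases before the start of Cxcl1 and 96 bases before that of Cxcl2. These letters occur in 104 of 32851 promoter windows, or 0.317%. The letters of a STAT site (TTCNNNGAA, in 8.30% of windows), of an IRF site (GAAANNGAA, in 8.56%) and of an AP-1 site (TGANTCA, in 7.81%) were not found in the 5 windows, and TATAAA (13.6%) was found in that of Cx3cl1. The promoters of Ccl2, Ccl7, Ccl5, Cxcl5 and Cxcl16 were not searched.

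In the 3′ UTR, ATTTA is the core of the AU-rich element. Cxcl1 and Cxcl2 held 7 and 11 copies, or 11.8 and 15.0 per kb, against a median of 1.12 and a 95th percentile of 6.08 per kb over 20633 genes with a 3′ UTR. Ccl2 held 1 copy, Ccl7 2, Cxcl5 5, Cx3cl1 1, Cxcl16 2 and Ccl5 0. The densest 30 bases of the first pair are shown, with ATTTA copies in capitals (GENCODE transcripts of GRCm38, chr5:90892602-90892631 for Cxcl1 and chr5:90905327-90905356 for Cxcl2, plus strand).
Cxcl1 AU-rich stretch: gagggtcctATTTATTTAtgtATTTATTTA
Cxcl2 AU-rich stretch: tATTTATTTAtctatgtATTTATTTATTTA
A start-stop upstream frame, in which the stop codon directly follows the ATG, was found in the 5′ UTR of Cxcl16, and in 8.01% of 20363 genes. The other 7 genes measured in both tables had none.

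Each sample held between 17369020 and 18403790 reads on genes, and normalized counts here are reads divided by the size factor of a sample. Denr, the targeted gene, had 1438 and 1401 normalized counts in control and 946 and 957 in DENR KO cells with IFNγ, and was lower by 0.58 and 0.56 on the log2 scale with IFNγ and untreated (adjusted p = 8.2e-06 and 0.00011). Of 7 epithelial markers 1 reached 10 normalized counts in a sample, and Epcam and Cdx2 had no row, while all 5 fibroblast markers did, so these carcinoma cells held few of the usual epithelial transcripts. Of 8 leukocyte markers 1, Cd68, reached 10, and Cd3e and Adgre1 were among those with no row. With IFNγ, the summed fibroblast markers were 20421 to 20456 in control and 18474 to 19237 in DENR KO samples, the summed leukocyte markers 53.3 to 54.4 and 61.5 to 69.9, the summed epithelial markers 13.1 to 16.4 and 12.7 to 24.6, and the summed endothelial markers 25.6 to 29.2 and 19.5 to 28.5. Untreated, the fibroblast sums were 22262 to 23238 and 20950.0 to 21589, the leukocyte sums 72.5 to 73.4 and 70.6 to 82.5, the epithelial sums 22.5 to 24.1 and 20.6 to 24.5, and the endothelial sums 32.7 to 35.2 and 23.5 to 29.5. Of the fibroblast markers, Dcn alone passed, as lower (-0.47, adjusted p = 4.2e-05 with IFNγ and -0.31, adjusted p = 0.013 untreated), and with IFNγ Col1a1, Col1a2, Col3a1 and Pdgfra were at -0.06, 0.01, 0.01 and 0.06. With edgeR, 0 of the fibroblast markers passed untreated, and 1 had an unadjusted p under 0.05. The part of these genes in the chemokine values was not tested. In bulk RNA, fewer cells expressing a gene and less of its RNA per cell cannot be told apart.

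The first question was how much of each chemokine mRNA the cells held. Ccl2 was the most abundant in every group. Per kilobase of the gene model, its mean level in untreated control cells was 2036, that of Ccl7 984, Cx3cl1 320 and Cxcl1 265, and that of Cxcl16 was 106. The Cxcl1 gene model includes a retained intron, and per kilobase of the main mRNA Cxcl1 (522) stood above Cx3cl1 (379). Ccl5 was at 13.2 and Cxcl5 at 2.45, and Cxcl2 at 1.48 and Ccl20 at 0.354 had ranges that met those of their neighbours in the order. Ccl20 was counted at 1 and 0 reads in control and 3 and 0 reads in DENR KO cells, at or under the limit of detection, and no fold is given.

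With IFNγ the order in control cells was Ccl2 (13586 per kilobase), Cxcl1 (3541), Ccl7 (3261), Cx3cl1 (1880.0), Cxcl16 (470.3), Ccl5 (89.3), Cxcl5 (36.5) and Cxcl2 (11.0). The ranges of Cxcl1 and Ccl7 overlapped, and no other neighbours in this order did. Per kilobase of its main mRNA Cxcl1 was at 6967 and Ccl7 at 3261. In DENR KO cells with IFNγ, Ccl7 (2130.5) and Cxcl1 (2058) again overlapped, and the other places were as in control cells.

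**Figure D1:**
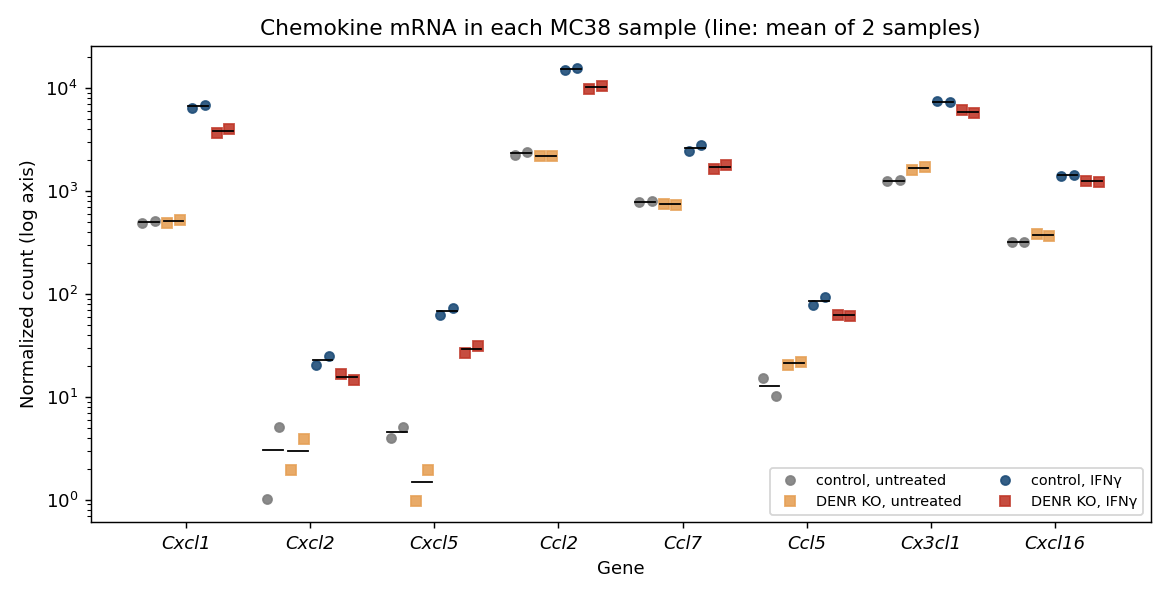
Normalized counts (log axis) of the 8 chemokine genes found in both tables, with a point for each of the 2 samples in each of the 4 groups and a line at their mean. With IFNγ every DENR KO point (red) lies below both control points (blue) of its gene, while untreated Cxcl1 points (grey and orange) overlap and untreated Cx3cl1 points are higher in DENR KO.

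The next comparison set the level with IFNγ beside the untreated level within each genotype. All 8 genes stood at least 2 times as high with IFNγ in control and in DENR KO cells, a size reached by 3.18% and 2.46% of the 13998 genes tested. Both IFNγ samples lay above both untreated samples for the 8 genes, as they did for 16.6% of all genes in control and 15.6% in DENR KO cells. Untreated, Cxcl2 and Cxcl5 had means of 3.05 and 4.56 in control and 2.95 and 1.47 in DENR KO cells. They passed the filter at a mean of 10 only through their IFNγ samples, so a high ratio was nearly fixed in advance for this pair. The tables were normalized separately, so the ratios of all 8 genes are descriptions with no test, and the median over all genes was -0.08 on the log2 scale in both genotypes. Cxcl1, a neutrophil attractant, was 13.3-fold higher in control and 7.62-fold higher in DENR KO cells. The single-sample ratios of Cxcl1 ran from 12.6 to 14.1 in control and from 7.05 to 8.21 in DENR KO cells and did not overlap.

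The monocyte attractant Ccl2 stood 6.67-fold higher with IFNγ in control and 4.69-fold higher in DENR KO cells, and its neighbour Ccl7 3.31-fold and 2.30-fold. Cx3cl1, the membrane-bound fractalkine, stood 5.88-fold and 3.56-fold higher, and Cxcl16, also made as a membrane protein, 4.44-fold and 3.34-fold. For these 4 genes too the single-sample ratios of the genotypes did not overlap. The share of all genes with ratios apart in this way was not counted, so this is a description only, also for Cxcl1. Ccl5 stood 6.78-fold higher in control cells, where the ratios spread from 5.23 to 9.08, and 2.95-fold in DENR KO cells.

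Cxcl5 and Cxcl2 rested on few untreated reads. Cxcl5 went from 9 reads to 134 over both control samples, a 14.9-fold ratio (95% exact interval 7.63 to 33.3), and from 3 to 59 reads in DENR KO cells, a 19.6-fold ratio (6.40 to 97.9). Cxcl2 went from 6 to 45 reads in control cells, 7.52-fold (3.20 to 21.6), and from 6 to 32 in DENR KO cells, 5.33-fold (2.20 to 15.6). These intervals cover counting error only, and they overlapped between the genotypes for both genes.

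**Figure D2:**
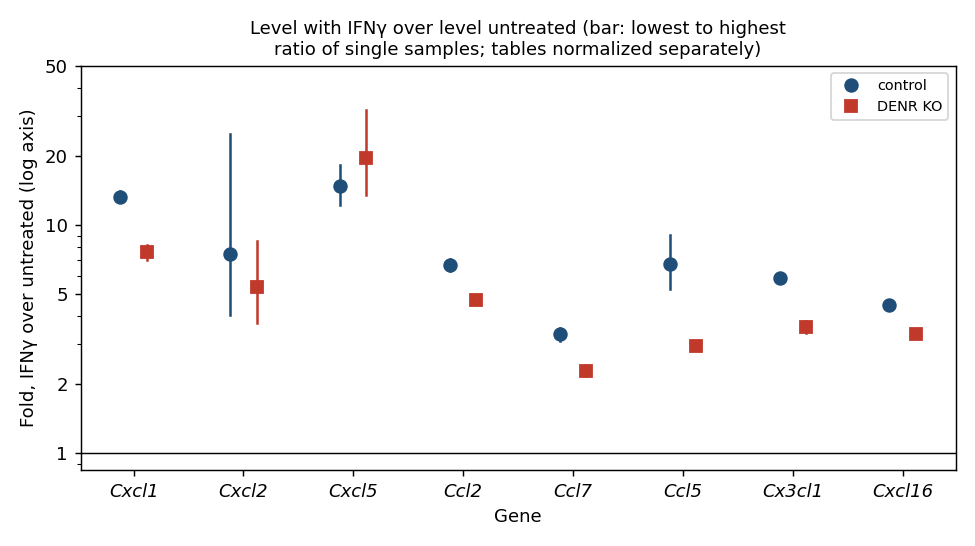
Ratio of the mean level with IFNγ to the mean untreated level (log axis) of each gene in control (blue circles) and DENR KO (red squares) cells, with bars from the lowest to the highest ratio of single samples. Bars of the genotypes are apart for Cxcl1 (13.3 against 7.62), Ccl2, Ccl7, Ccl5, Cx3cl1 and Cxcl16, and overlap for Cxcl2 and Cxcl5. The share of all genes with bars apart was not counted.

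The main comparison asked how the chemokine mRNAs of IFNγ-treated cells differed without DENR. Levels of 5 of the 8 genes were lower in DENR KO cells: Cxcl1, Cxcl5, Ccl2, Ccl7 and Cx3cl1. No gene of the set was higher by the limma test. Over all 13928 genes tested, 2.25% passed as lower and 1.8% as higher, and the 251 higher genes became 146 without DENR KO replicate 1. Both DENR KO samples lay below both control samples for all 8 genes, an arrangement found in 20.8% of the genes tested.

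Of the CXCR2 ligands, Cxcl1 had 6402 and 6876 normalized counts in control and 3674 and 4044 in DENR KO cells. Both DENR KO samples were far below both control samples, and the mean was 58.1% of control (log2 fold change -0.78 ± 0.06 SE, adjusted p = 5.6e-09). Cxcl5 was scarce, at 62.5 and 73.5 in control and 26.6 and 31.3 in DENR KO cells. Its fold change was the steepest of the set (-1.21 ± 0.26, adjusted p = 0.0070), and on the reads alone the ratio was 0.425 (95% exact interval 0.307 to 0.581). The Cxcl5 call was lost without control replicate 2 with IFNγ (-1.09, adjusted p = 0.069) and with DESeq2 on the recovered reads (-1.23, adjusted p = 0.15). Cxcl2, the neighbour of Cxcl1, had 20.5 and 25.2 in control and 16.7 and 14.7 in DENR KO cells. Its samples did not overlap, but at this depth the difference did not pass (-0.51, 95% interval -1.31 to 0.29, adjusted p = 0.65).

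Of the CCR2 ligands, Ccl2 had 15089 and 15834 normalized counts in control and 9915 and 10473 in DENR KO cells. Ccl7 had 2451 and 2773 in control and 1624 and 1789 in DENR KO cells. The groups were apart for both of these adjacent genes, and the means were 65.9% and 65.3% of control. The fold change was -0.60 ± 0.05 for Ccl2 and -0.61 ± 0.07 for Ccl7 (adjusted p = 2.3e-08 and 3.8e-06).

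Cx3cl1 had 7499 and 7277 normalized counts in control and 6124 and 5677 in DENR KO cells, a mean of 79.9% of control (-0.33 ± 0.06, adjusted p = 0.00058). Cxcl16 had 1396 and 1446 in control and 1263 and 1229 in DENR KO cells, and its fold change of -0.19 (95% interval -0.33 to -0.05) did not pass over all genes (adjusted p = 0.17). Ccl5, a T cell and monocyte attractant, had 78.9 and 92.6 in control and 63.0 and 61.5 in DENR KO cells. Neither Cxcl16 nor Ccl5 had overlapping groups, and Ccl5 did not pass either (-0.45, 95% interval -0.89 to -0.02, adjusted p = 0.35).

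**Figure D3:**
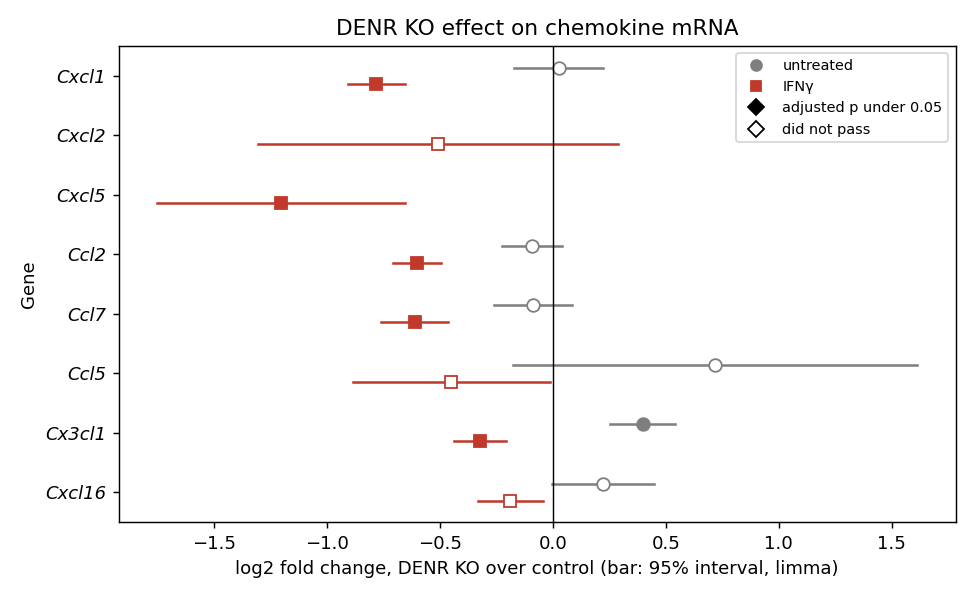
DENR KO effect (log2, KO over control) on each gene, with IFNγ (red squares) and untreated (grey circles), and its 95% interval from limma, where filled points had an adjusted p under 0.05. With IFNγ all 8 points lie left of 0 and 5 are filled, while the filled untreated point of Cx3cl1 lies right of 0 at 0.40. Cxcl2 and Cxcl5 were too scarce to be tested untreated.

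Without IFNγ, fewer genes of the set passed the same comparison. Of 9 genes with a row, 6 passed the filter on low values, and Cx3cl1 alone passed the test, as higher in DENR KO cells. Over all 13998 genes tested, 0.429% passed as higher and 0.15% as lower. These 60 and 21 genes became 20 and 15 without control replicate 2, and the lower count was 35 or 41 without DENR KO replicate 1 or 2. Cx3cl1 had 1244 and 1269.5 normalized counts in control and 1618 and 1693 in DENR KO cells. Both DENR KO samples were above both control samples (0.40 ± 0.07, adjusted p = 0.0033). The Cx3cl1 call was lost when control replicate 2 (0.41, adjusted p = 0.052) or DENR KO replicate 2 (0.36, adjusted p = 0.088) was left out.

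Cxcl16 had 318 and 321 in control and 379 and 367 in DENR KO cells, above control in both samples, but did not pass (0.22, 95% interval -0.01 to 0.45, adjusted p = 0.55). Ccl5 had 15.1 and 10.2 in control and 20.6 and 21.6 in DENR KO cells, and its interval was wide (0.72, -0.18 to 1.61, adjusted p = 0.64). Both DENR KO samples were above both control samples for 3 of the 6 genes tested and below them for 2, against 20.4% and 19.6% of all genes tested. The 2 below were Ccl2 and Ccl7.

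Ccl2 had 2239 and 2395 in control and 2167 and 2177 in DENR KO cells (-0.09, 95% interval -0.23 to 0.04, adjusted p = 0.71). Ccl7 had 784 and 793 against 747 and 736 (-0.09, 95% interval -0.26 to 0.08, adjusted p = 0.80). Cxcl1 had 489 and 506 against 492 and 521, so its groups overlapped (0.03, 95% interval -0.17 to 0.22, adjusted p = 0.96). For these 3 genes the intervals excluded a fall as large as the one fitted with IFNγ. Cxcl5 had 4.02 and 5.10 in control and 0.98 and 1.97 in DENR KO cells, or 9 against 3 reads, a ratio of 0.323 (95% exact interval 0.0562 to 1.29). Cxcl2 had 6 reads in each genotype, and a difference in either gene was not detectable at this depth.

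Whether the DENR KO effect differed between the treatments was tested over all 8 samples as an interaction. It was more negative with IFNγ for Cxcl1, Cx3cl1, Ccl2 and Ccl7, and 4 of the 8 genes passed, where 0.429% of 13998 genes passed in this direction. These 60 genes became 35 without control replicate 2 with IFNγ and 37 without DENR KO replicate 1 untreated. The difference of log2 fold changes was -0.81 ± 0.10 for Cxcl1 and -0.72 ± 0.08 for Cx3cl1 (adjusted p = 3.5e-05 and 2.6e-05). The Cxcl1 groups overlapped untreated and were apart with IFNγ, while Cx3cl1 was higher untreated and lower with IFNγ. The difference was -0.51 ± 0.08 for Ccl2 and -0.52 ± 0.10 for Ccl7 (adjusted p = 0.00094 and 0.016). The Ccl7 call was lost with edgeR on the recovered reads (adjusted p = 0.053) and without any one of 4 libraries, which were control replicate 2 and DENR KO replicate 1 with IFNγ and DENR KO replicates 1 and 2 untreated (adjusted p = 0.16, 0.14, 0.12 and 0.086).

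Cxcl16 (-0.41 ± 0.11, adjusted p = 0.20) and Ccl5 (-1.17 ± 0.41, adjusted p = 0.50) had values of the same sign that did not pass. For Cxcl2 (-0.64, 95% interval -2.43 to 1.16) and Cxcl5 (-0.01, 95% interval -1.38 to 1.35) the intervals were too wide to place the effect. These tests share their samples with the comparisons within each table.

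The other chemokine ligands, receptors and regulators were described by lists, which were chosen with earlier results of these data known. With IFNγ, 2.25% of all 13928 genes tested passed as lower and 1.8% as higher. Untreated, 0.15% and 0.429% of 13998 genes did, and in the interaction 0.429% passed as lower. Of 28 other chemokine ligands, 9 were tested with IFNγ, and 3 were lower in DENR KO cells, with a median log2 fold change of -0.69 over the 9 against 0.00 over all genes. These were the CXCR3 ligands Cxcl10, Cxcl9 and Cxcl11, which attract activated T cells. Cxcl10 had 39679 and 42271 normalized counts in control and 17037 and 18061 in DENR KO cells (-1.22, adjusted p = 9.2e-14), and Cxcl9 and Cxcl11 differed by -1.29 and -1.32 (adjusted p = 2.7e-12 and 2.1e-07). Untreated, 0 of 5 tested passed with limma, edgeR or DESeq2, and 0 had an unadjusted p under 0.05. In the interaction Cxcl10 passed, 1 of 7 tested.

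Of 23 chemokine receptors, 4 were tested with IFNγ, and Ackr3, an atypical receptor named after its values were seen, had 4248 to 4872 normalized counts in the 8 samples. By limma, edgeR and DESeq2 0 passed, and 0 had an unadjusted p under 0.05. Untreated, 0 of 3 tested passed by these tools, and 1 had an unadjusted p under 0.05. CXCR2, CCR2, CX3CR1 and CXCR6, the receptors of the ligands above, were not among those tested.

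Of 6 enzymes that trim or shed chemokines, 5 were tested, and 3 were higher in DENR KO cells with IFNγ, against 1.8% of all genes tested. These were the matrix metalloproteinases Mmp2 (0.32, adjusted p = 0.00023), Mmp14 (0.35, adjusted p = 0.00040) and Mmp9 (0.52, adjusted p = 0.0011). The median of the list was 0.32. Mmp9 had 414 and 438 normalized counts in control and 638 and 586 in DENR KO cells. Untreated, Mmp9 (0.56, adjusted p = 0.0031) and Mmp2 (0.27, adjusted p = 0.013) were higher, and with edgeR 1 enzyme passed. In the interaction 0 of 5 passed by limma, edgeR or DESeq2, and 1, 1 and 0 had an unadjusted p under 0.05. Adam10 and Adam17, the sheddases that release CX3CL1 and CXCL16, were at 0.01 and 0.00 with IFNγ and did not pass.

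Among 8 regulators of chemokine mRNA decay, Zfp36 was lower with IFNγ (-0.57, adjusted p = 0.00028). Its product, tristetraprolin, binds AU-rich elements, whose core letters are shown above for Cxcl1 and Cxcl2, and hastens decay. Decay was not measured here, and a part of Zfp36 in the levels of these mRNAs was not tested. Zfp36 had 683 and 650.4 normalized counts in control and 447 and 453 in DENR KO cells. The other 7 did not pass, the median of the list was -0.03, and untreated 0 of 8 passed by limma, edgeR or DESeq2 or had an unadjusted p under 0.05. In the interaction 0 of 8 passed by these tools, and 2 had an unadjusted p under 0.05 by each. Zfp36 was at -0.50 there (adjusted p = 0.31, limma), so a difference of its DENR KO effect between treatments did not pass.

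Of 21 NF-κB, STAT and IRF regulators of chemokine genes, 12 were lower in DENR KO cells with IFNγ and 0 were higher. Over all genes tested 2.25% were lower and 1.8% higher, and the median of the list was -0.28. With edgeR 11 and with DESeq2 10 of the 21 passed. The 4 with the smallest adjusted p were Irf1 (-0.52, adjusted p = 1.0e-07), a transcription factor induced by IFNγ, Stat3 (-0.54, adjusted p = 8.4e-07), Nfkbiz (-0.54, adjusted p = 9.5e-06), which encodes the NF-κB cofactor IκBζ, and Stat2 (-0.52, adjusted p = 1.8e-05). Untreated, 0 of the 21 passed by limma, edgeR or DESeq2 or had an unadjusted p under 0.05, and the median was 0.00. In the interaction Irf1 (-0.58), Stat3 (-0.60) and Nfkbiz (-0.61) passed (adjusted p = 0.00018, 0.0019 and 0.0043).

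Of 11 myeloid growth factors and cytokines, 6 were tested with IFNγ. Vegfa, an angiogenic factor that also attracts monocytes, was higher in DENR KO cells with IFNγ (0.33, adjusted p = 0.0013) and untreated (0.27, adjusted p = 0.021), where with edgeR 0 of the list passed and 2 had an unadjusted p under 0.05. The other 5 tested with IFNγ did not pass, and the median was 0.00.

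**Figure D4:**
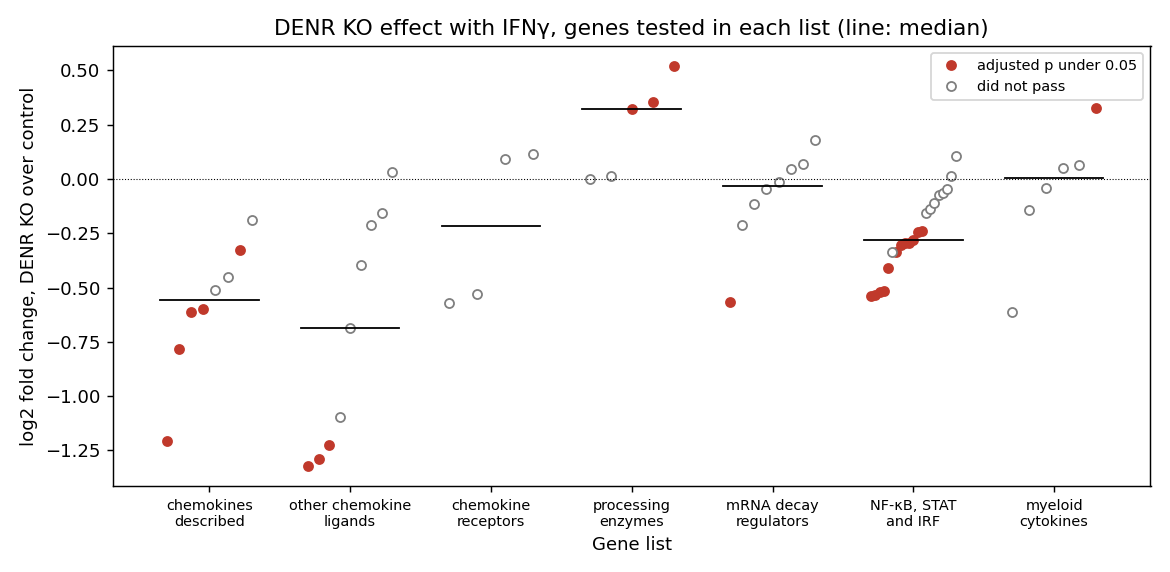
DENR KO effect (log2, KO over control) with IFNγ for every tested gene of the chemokine set and of 6 related lists, sorted within each list, with a line at the median and filled red points for an adjusted p under 0.05. Filled points of the chemokines, of other ligands, of Zfp36 and of the NF-κB, STAT and IRF list lie below 0. Those of the enzymes and of Vegfa lie above it. The NF-κB, STAT and IRF list also holds JAK and IFNγ receptor genes and genes of NF-κB inhibitors.

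Genes most like Cxcl1 and Ccl2 over the 8 samples were sought among the 10415 with a mean of at least 100. Likeness was the root mean square distance of log2 values centred on each gene's mean. Cxcl2, Cxcl5 and Ccl5 had means under 100 and were not compared. Nearest to Cxcl1 were Irf1 (0.116), Parp9 (0.169) and Oasl2 (0.190). Nearest to Ccl2 were Samhd1 (0.0617), Stat2 (0.0657) and Trim21 (0.0959). Like Ccl2, these were lowest untreated and stood lower in DENR KO than control cells with IFNγ, as follows from how they were chosen. Of the members compared, Ccl2 was the 28th nearest to Cxcl1 at 0.431, and Cx3cl1 was the 37th nearest to Ccl2 at 0.253, ahead of Ccl7, the genomic neighbour of Ccl2, at 0.512. This distance takes in the IFNγ ratio as well as the DENR KO effect. In control cells that ratio was 6.67-fold for Ccl2 and 3.31-fold for Ccl7.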

How the data were processed

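Per the labels and the study's methods, RNA was extracted with Trizol and sequenced by standard Illumina protocols. The submitters' processing notes name HISAT2 2.0.5, StringTie 1.3.3b, featureCounts 1.5.0-p3, DESeq2 1.20.0 and mm9, but the deposited coordinates of the genes described equal those of GRCm38, as do 95.3% of 21739 shared gene IDs. The authors deposited 1 table per treatment, holding for each sample a signal equal to reads over a size factor. It also holds group means, log2 fold changes and p-values that the authors computed with their own comparison, and these were not used.

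All values were whole multiples of 1 step per sample within 0.001, so reads could be recovered. DENR KO and control were compared within each table with limma 3.58.1 (R 4.3.3; intensity trend, robust moderation) on log2(normalized count + 1), for genes with a mean of at least 10, with Benjamini-Hochberg adjustment over all genes and a threshold of 0.05. Fold changes on this scale understate changes of low genes. The interaction was fitted over 8 samples. The smallest two-sided p of a permutation of 2 against 2 samples is 0.333, so none was used. Intervals marked exact are conditional binomial. Alternatives were edgeR 4.0.16 and DESeq2 1.42.0 on recovered reads, other pseudocounts, filters and centring, a replicate block, a joint fit and leaving out each sample. Scripts were tested on simulated data. Members and lists were chosen with earlier results of these data known. Named were all members and, of each other list, at most 4 genes passing with IFNγ or in the interaction, with Adam10, Adam17 and Ackr3 added after their values were seen.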

Additional observations from a re-analysis of the deposited data

Results flagged for a closer look

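The DENR KO effect differed between IFNγ-treated and untreated cells by the interaction test for Cxcl1 (-0.81 on the log2 scale), Cx3cl1 (-0.72), Ccl2 (-0.51) and Ccl7 (-0.52). For Cxcl16 (-0.41) and Ccl5 (-1.17) both DENR KO samples lay above both control samples untreated and below them with IFNγ, while the interaction did not pass (adjusted p = 0.20 and 0.50, limma). Of all genes tested, 20.4% had both DENR KO samples above control untreated, and 20.8% had both below with IFNγ. The share of genes with both arrangements was not counted, so this is a description only. Untreated Ccl5 rested on 25 reads in control and 43 in DENR KO cells.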

How the results depend on the processing

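The counts of genes of the set that passed were 5 with IFNγ, 1 untreated and 4 in the interaction. Without trend and robust moderation they were 0, 0 and 0, where 7, 3 and 6 had an unadjusted p under 0.05, and over all genes 0 passed in each, where 1585, 1036 and 864 had one. With a fold beyond 0.5 required as well, the IFNγ count was 4 and the untreated count 0, and 215 and 30 genes in all passed with IFNγ and untreated, against 565 and 81. Leaving out 1 sample gave 4 to 5, 0 to 1 and 3 to 4, and the 8 genes higher with IFNγ in each genotype stayed at 8 to 8. With DESeq2, 345 and 50 genes in all passed with IFNγ and untreated, and with edgeR 41 untreated. Samples with the same replicate number had correlated deviations of 0.223, 0.0472, 0.228 and 0.0238 between the 4 pairs of groups, not over 0.1 in each, and the labels give no shared batch, so they were not treated as pairs, and whether they share one was not tested. With the replicate block, 6, 1 and 4 genes of the set passed, Cxcl16 with IFNγ being added (adjusted p = 0.013), and 1455, 257 and 102 genes in all (63 in the interaction without it). With a joint fit, the Cxcl5 call was lost (adjusted p = 0.22). Size factors over all 8 samples, or scaling to the total reads on genes, moved the IFNγ ratios by at most 0.08 on the log2 scale. No result changed sign past the threshold under any of these alternatives. With 2 samples a group, low reads limited Cxcl2, Cxcl5, Ccl5 and Ccl20.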
